A study of Mus musculus with 8 samples.

Results

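Heat shock chaperone genes were described in lung tissue of mice given lipopolysaccharide (LPS) with or without tangeretin (Tan), a polymethoxylated flavone of citrus peel. The set holds 10 genes, namely Hspa1a, Hspa1b, Dnajb1, Hsph1, Hspb1, Hsp90aa1, Hspa8, Hspe1, Hspd1 and Bag3, out of 24584 genes in the tables and 15706 genes with enough counts for a test. All 10 passed the filter on low counts. The genes were chosen by name after earlier results of the same 8 samples were known, so their values in LPS + Tan against LPS are a description, and calls by a test are counted for them without being read as evidence. Whether HSF1 itself was active was not measured, since these data hold RNA levels only.

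Bulk RNA-seq of whole lung was used, with 4 mice in the LPS group and 4 in the LPS + Tan group. All mice were male ICR mice, 6 to 8 weeks old and wild type by the labels. Both groups received LPS of Escherichia coli O111:B4 at 5 mg/kg by intraperitoneal injection, and the LPS + Tan group also received tangeretin by the same route at 50 mg/kg, given ahead of LPS by 30 min. Lungs were taken 12 h after LPS. Samples of untreated mice or of mice given tangeretin alone were not analysed here, so the levels cannot be set against a lung without LPS. Because whole lung was sequenced, fewer cells of a type and less RNA per cell cannot be told apart.

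Heat shock factor 1 (HSF1) is a transcription factor that chaperones hold in an inactive form. When unfolded proteins draw the chaperones away, HSF1 forms trimers, binds heat shock elements made of inverted GAA units, and drives the genes of HSP70, HSP40, HSP110, HSP90, small heat shock proteins and the mitochondrial chaperonin. Hspa1a and Hspa1b encode the inducible HSP70, which is scarce in unstressed cells, whereas Hspa8 encodes the constitutive HSC70. In the lung, this response is known from fever, hyperthermia and oxidative injury.

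Depth hardly differed between the libraries, with 38895654 to 39931970 reads counted on genes per sample in the LPS group and 39039693 to 39629332 in the LPS + Tan group (exact two-sided permutation p = 0.686, with 0.0286 the smallest p that 4 against 4 samples allow). Counts are given as CPM, a gene's reads relative to the size of its library, with the TMM factor, which corrects for a few genes that take a large share of the reads. Log2 fold changes and their standard errors (SE) are those of edgeR's quasi-likelihood fit, positive where LPS + Tan was higher.

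The inducible HSP70 genes showed the largest differences among the 10 genes. Both were about 3 to 4 times as high on average in the LPS + Tan group, HSC70 and its partners Hsph1 and Dnajb1 were higher by smaller factors, and Hspb1, Bag3 and the mitochondrial chaperonin genes differed little. The contrast chose the genes, so nothing is read from the counts of genes past a threshold that follow. An unadjusted p below 0.05 by edgeR was met by 5 of the 10 in the higher direction and by 0 in the lower, against 2.87% of all tested genes higher and 2.25% lower. Those 5 were Hspa1a, Hspa1b, Dnajb1, Hsph1 and Hspa8. With a log2 fold change above 1 as well, 2 of the 10 and 0.35% of all genes passed. After Benjamini-Hochberg adjustment over all genes, edgeR called 0 of the 10 and 0% of all tested genes, while DESeq2 called 2 of the 10 and 0.103% of all genes higher, and edgeR's likelihood ratio test called 2 of the 10 and 0.0955%. Both tools called the same genes, Hspa1a and Hspa1b. The median log2 fold change was 0.32 over the 10 genes and 0.01 over all tested genes, and all 10 had a log2 fold change above 0, as had 8135 of the 15706 tested genes.

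Hspa1a, on chromosome 17 (GRCm38 chr17:34969190-34972156, minus strand, 1 exon), was measured at 3.63, 1.80, 1.93 and 3.34 CPM in LPS replicates 1 to 4 and at 8.76, 3.10, 14.4 and 8.63 CPM in LPS + Tan replicates 1 to 4. LPS + Tan replicates 1, 3 and 4 lay above every LPS mouse, whereas LPS + Tan replicate 2 lay below LPS replicates 1 and 4, so the groups overlapped. The means were 2.68 ± 0.945 CPM (SD, n = 4) in LPS and 8.73 ± 4.63 CPM (SD, n = 4) in LPS + Tan, a log2 fold change of 1.71 ± 0.42 (SE). These values rest on 71 to 142 reads per LPS library and 122 to 594 reads per LPS + Tan library. Hspa1b, its neighbour 9951 bases away on the same strand (chr17:34956436-34959238, 1 exon), was measured at 9.92, 5.04, 4.60 and 5.08 CPM in the LPS mice and at 25.3, 9.10, 36.5 and 22.5 CPM in the LPS + Tan mice. The same mouse, LPS + Tan replicate 2, lay within the LPS range, below LPS replicate 1 alone. The means were 6.16 ± 2.52 and 23.4 ± 11.3 CPM (SD, n = 4 each), a log2 fold change of 1.92 ± 0.39 (SE), on 176 to 388 and 358 to 1501 reads per library.

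The pair cannot be separated with confidence by short reads. Their coding sequences were the same at 1916 of 1926 aligned bases (99.5%), and 48.6% of the 100-base stretches of the Hspa1a transcript and 49.9% of those of Hspa1b also occur in transcripts of other genes, nearly all of them in the other gene of the pair. How the counting treated reads that fit both genes is not given in the sources used here. Summed over both genes, which does not depend on the split within the pair, the level was 13.6, 6.84, 6.53 and 8.42 CPM in the LPS mice and 34.1, 12.2, 50.9 and 31.2 CPM in the LPS + Tan mice. The means of the sum were 8.84 ± 3.25 and 32.1 ± 15.9 CPM (SD, n = 4 each), a ratio of 3.63. Hspa1a took 30.6 ± 6.24% of the pair's reads in LPS and 26.8 ± 1.46% in LPS + Tan (SD, n = 4 each), with 26.3 to 39.7% against 25.4 to 28.4%, so the split within the pair overlapped between the groups.

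**Figure D1:**
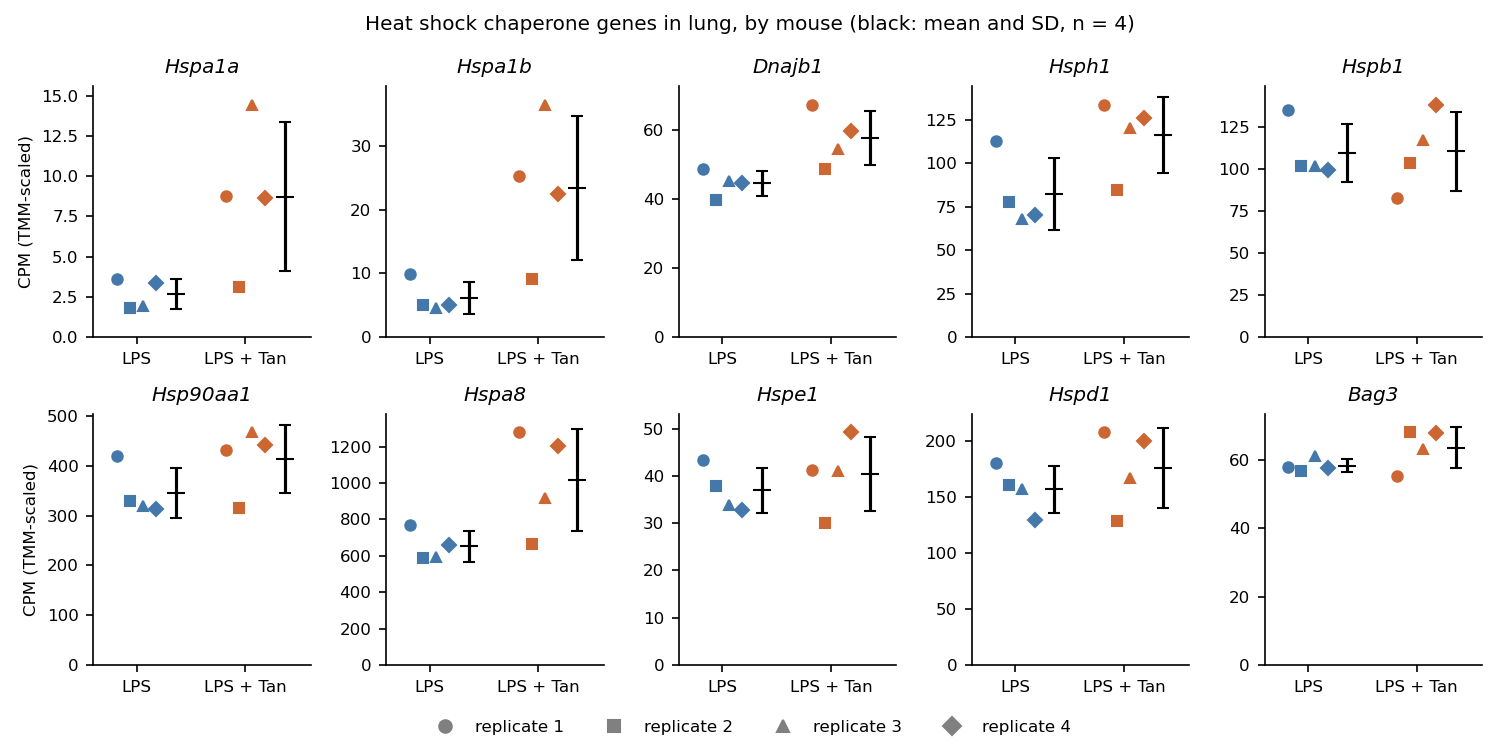
Level of each of the 10 heat shock chaperone genes in each lung, in TMM-scaled CPM on the y axis (each panel has its own scale from 0), with LPS and LPS + Tan on the x axis. Marker shapes stand for replicates 1 to 4 of a group and black bars for the mean and SD (n = 4); Hspa1a and Hspa1b have the largest ratio of means, and Dnajb1 is the gene whose groups do not overlap (48.5 CPM at most in LPS, 48.7 CPM at least in LPS + Tan).

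The upstream windows of the pair are shown because these genes had the largest differences and because HSF1 acts there. RefSeq promoter windows of GRCm38.p6, with 250 bases before and 50 after an annotated start, were given for 8 of the 10 genes, with no window for Hsp90aa1 and Hspa8. The 250 bases upstream of Hspa1b (chr17:34959239-34959488, minus strand) are printed 5′ to 3′ with the GAA and TTC units of a heat shock element match in capitals, and the matching stretch of Hspa1a (chr17:34972233-34972280, minus strand) stands under it.
Hspa1b: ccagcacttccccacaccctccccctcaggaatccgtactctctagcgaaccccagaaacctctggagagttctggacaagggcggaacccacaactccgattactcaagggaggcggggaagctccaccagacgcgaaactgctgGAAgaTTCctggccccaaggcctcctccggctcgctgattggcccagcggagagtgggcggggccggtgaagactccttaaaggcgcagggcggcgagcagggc
Hspa1a: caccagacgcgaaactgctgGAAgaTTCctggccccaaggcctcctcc
In both genes the match began 104 bases before the start. The 250 upstream bases were the same at 247 positions (98.8%).

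Heat shock elements were searched on both strands as GAA and TTC units in alternation with 2 bases between them. Units with a differing base or another spacing were not counted, so the number of units in a match can be too low. The 2-unit form (GAANNTTC or TTCNNGAA) was found in the windows of 7 of the 8 genes, all but Dnajb1, and in those of 17.0% of 27025 genes with a window. For Dnajb1 and Bag3 the bases just after the RefSeq starts did not match an annotated transcript of the gene. A second Dnajb1 window (chr8:83608298-83608597) lies inside the annotated gene. The 3-unit form, in which these 2-unit forms overlap, was found in 3 of the 8, Hspd1, Hspe1 and Hsph1, and in 0.662% of genes. For Hspd1 the matches lay in the window chr1:55087883-55088182, and the window at the gene's annotated start (chr1:55088194-55088493) held none. Hspd1 and Hspe1 encode the chaperonin HSP60 and its lid HSP10 and stand head to head on chromosome 1, so that their match is the same 4 alternating units (chr1:55088053-55088082), read on the minus strand for Hspd1 and on the plus strand for Hspe1. The stretch also lies within an exon of the Hspd1-202 transcript. Hspb1, the small heat shock protein HSP27 in humans and HSP25 in mice, held a pair of 2-unit matches (chr5:135887782-135887849, plus strand). For Hsph1 the stretch shown (chr5:149636351-149636380, minus strand) holds a 2-unit match that lies before the RefSeq starts, although 26 of its 30 bases lie within an exon of the Hsph1-206 transcript. The 3-unit match of Hsph1 lies after the RefSeq starts and outside the stretch shown.
Hspd1: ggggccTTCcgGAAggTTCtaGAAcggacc
Hspe1: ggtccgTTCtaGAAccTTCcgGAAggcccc
Hspb1: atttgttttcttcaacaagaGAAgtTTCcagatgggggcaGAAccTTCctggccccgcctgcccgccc
Hsph1: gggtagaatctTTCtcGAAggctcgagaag
Capitals mark the GAA and TTC units of each match. The match of Bag3 lay after the start, at bases 42 to 49. The log2 fold changes of the 3 genes with a 3-unit match were 0.16 for Hspd1, 0.13 for Hspe1 and 0.50 for Hsph1, and those of Hspa1a and Hspa1b, with 1 match of 2 units each, were 1.71 and 1.92. A match is a description of letters and not a measured site of HSF1.

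**Figure D2:**
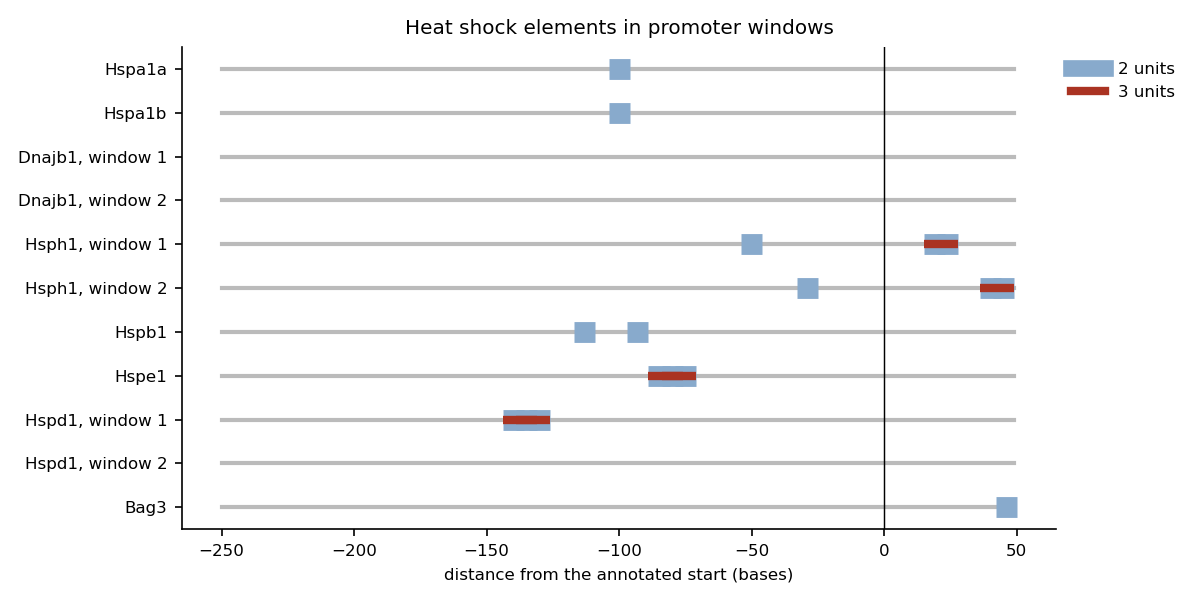
Matches to heat shock elements in the RefSeq promoter windows of 8 of the 10 genes, with 1 line per window and the distance in bases from the annotated start on the x axis. Wide blue marks are 2-unit matches and narrow red marks are 3-unit matches; 7 of the 8 genes hold a 2-unit match, and Hspd1, Hspe1 and Hsph1 hold a 3-unit match.

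Among the partners of HSP70, Dnajb1 encodes the HSP40 co-chaperone that delivers clients to it (chr8:83608193-83612653, plus strand, 3 exons). Its level was 48.5, 39.5, 45.1 and 44.5 CPM in the LPS mice and 67.2, 48.7, 54.5 and 59.5 CPM in the LPS + Tan mice. This was the only gene of the 10 whose groups did not overlap, by the narrow step from LPS replicate 1 to LPS + Tan replicate 2, and 1.58% of all tested genes had every LPS + Tan value above every LPS value while 1.15% had every value below. The means were 44.4 ± 3.70 and 57.5 ± 7.85 CPM (SD, n = 4 each), a log2 fold change of 0.37 ± 0.11 (SE). None of the 100-base stretches of its transcript occurs in transcripts of another gene.

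Hsph1 encodes HSP110, the nucleotide exchange factor that lets HSP70 release its client (chr5:149614287-149636376, minus strand, 18 exons). It was measured at 113, 78.0, 67.7 and 70.4 CPM in LPS and at 134, 84.8, 120.3 and 126 CPM in LPS + Tan. LPS replicate 1 lay above LPS + Tan replicate 2 and below the other 3 mice of that group. The means were 82.2 ± 20.8 and 116 ± 21.7 CPM (SD, n = 4 each), a log2 fold change of 0.50 ± 0.19 (SE). Bag3, which links HSP70 to small heat shock proteins and to autophagy (chr7:128523616-128546981, plus strand, 4 exons), was measured at 57.9, 56.7, 61.2 and 57.8 CPM in LPS and at 55.3, 68.2, 63.2 and 68.1 CPM in LPS + Tan. Its order of mice differed from that of the HSP70 genes, since LPS + Tan replicate 1 was the lowest of all 8 and LPS + Tan replicate 2 the highest of all. The means were 58.4 ± 1.96 and 63.7 ± 6.05 CPM (SD, n = 4 each), a log2 fold change of 0.12 ± 0.08 (SE).

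Hspa8, the HSC70 of unstressed cells (chr9:40800984-40810087, plus strand, 9 exons), was the most abundant of the 10, at 771, 589, 593 and 658 CPM in LPS and 1278, 666, 916 and 1204 CPM in LPS + Tan. LPS + Tan replicates 1, 3 and 4 lay above all LPS mice, and LPS + Tan replicate 2 lay below LPS replicate 1. The means were 653 ± 85.1 and 1016 ± 281 CPM (SD, n = 4 each), a log2 fold change of 0.64 ± 0.20 (SE). In CPM this was the largest absolute difference of the 10, whose sum was 1495 ± 192 CPM in LPS and 2025 ± 409 CPM in LPS + Tan (SD, n = 4 each). Without Hspa8 the sum of the other 9 genes was 842 ± 115 and 1009 ± 148 CPM. Transcripts of 7 other genes share 62.8% of its 100-base stretches, mostly the copy Gm15459, and the small nucleolar RNA genes Snord14c, Snord14d and Snord14e lie inside it.

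Hsp90aa1 encodes the inducible cytosolic HSP90 (chr12:110690605-110702728, minus strand, 11 exons). It was measured at 420.4, 329, 319 and 312 CPM in LPS and at 431, 315, 467 and 442 CPM in LPS + Tan. LPS replicate 1 was nearly as high as the 3 high LPS + Tan mice, and LPS + Tan replicate 2 was below 3 of the 4 LPS mice. The means were 345 ± 50.6 and 414 ± 67.8 CPM (SD, n = 4 each), a log2 fold change of 0.26 ± 0.14 (SE), and 47.6% of its 100-base stretches are shared with transcripts of other genes.

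Hspb1, which holds unfolding proteins without ATP (chr5:135887919-135889563, plus strand, 2 exons), was measured at 135, 101, 101 and 99.3 CPM in LPS and at 82.3, 104, 117 and 138 CPM in LPS + Tan. LPS + Tan replicate 1, high for the HSP70 genes, was the lowest of all 8 mice for Hspb1. The means were 109 ± 17.1 and 110.2 ± 23.4 CPM (SD, n = 4 each), a log2 fold change of 0.01 ± 0.16 (SE), and 42.7% of its 100-base stretches are shared with the copy Hsp25-ps1.

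The mitochondrial chaperonin was given by Hspd1 (chr1:55077835-55088243, minus strand, 12 exons) and Hspe1 (chr1:55088132-55091307, plus strand, 4 exons), which fold proteins imported into the matrix. Hspd1 was measured at 180.2, 161, 157 and 129 CPM in LPS and at 207, 129, 166 and 199.8 CPM in LPS + Tan. LPS + Tan replicates 1 and 4 were above all LPS mice, and LPS + Tan replicate 2 was the lowest of all 8. Hspe1 was measured at 43.4, 37.8, 33.9 and 32.8 CPM in LPS and at 41.3, 30.0, 41.1 and 49.2 CPM in LPS + Tan. Only LPS + Tan replicate 4 exceeded LPS replicate 1, and LPS + Tan replicate 2 was again the lowest of all 8. The log2 fold changes were 0.16 ± 0.16 and 0.13 ± 0.15 (SE), smaller than the spread between mice. With 1 mouse left out in turn, that of Hspd1 ran from 0.07 without LPS + Tan replicate 1 to 0.29 without LPS + Tan replicate 2, and that of Hspe1 from 0.02 without LPS + Tan replicate 4 to 0.25 without LPS + Tan replicate 2. As the annotated genes overlap at their starts, reads there cannot be assigned to one of the pair without strand.

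Levels between genes were compared as FPKM, which divides by gene length. How shared reads were counted is not given, so levels of genes with shared stretches, Hspa8, Hspa1a and Hspa1b among them, may be off. Hspa8 had the highest mean over the 8 samples, 398 FPKM, at rank 122 of the 15706 tested genes. Hsp90aa1 (133 FPKM), Hspb1 (121 FPKM), Hspd1 (64.2 FPKM), Hspe1 (50.4 FPKM), Bag3 (23.5 FPKM), Dnajb1 (15.8 FPKM) and Hsph1 (15.5 FPKM) followed. Hspa1b (5.33 FPKM) and Hspa1a (2.07 FPKM) were the lowest, at ranks 7666 and 10330. Each gene was above the next in 8 of 8 samples, apart from the neighbours Hsp90aa1 and Hspb1 and the neighbours Dnajb1 and Hsph1, where the order held in 4 of 8 samples each. The genes with the largest log2 fold changes were thus those with the lowest levels, and they also varied most between mice of one group, with a coefficient of variation of 35.3% in LPS and 53.0% in LPS + Tan for Hspa1a and of 40.9% and 48.2% for Hspa1b. The steadiest was Bag3, at 3.35% and 9.50%.

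**Figure D3:**
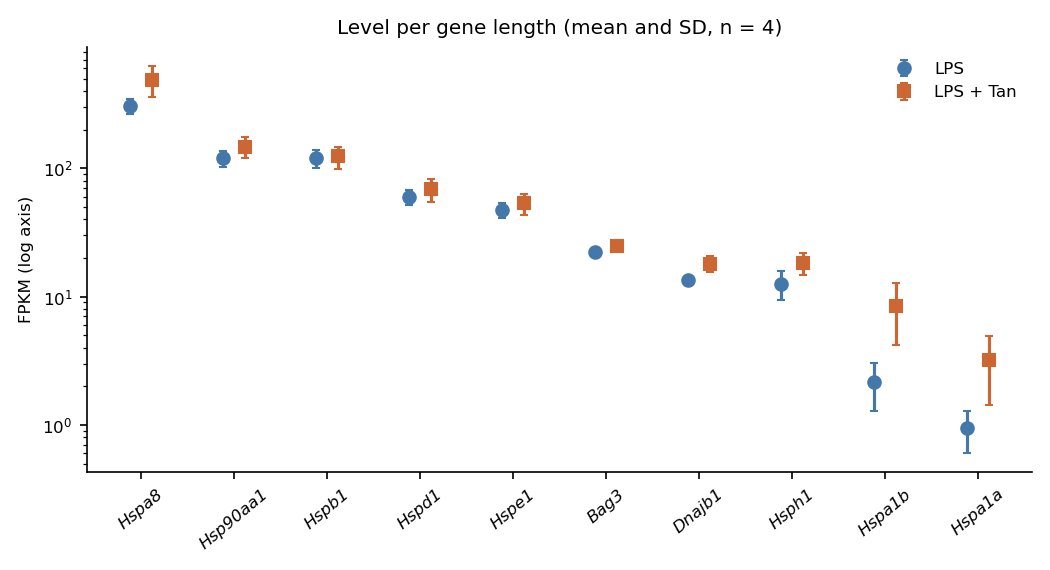
Level per gene length of the 10 genes in FPKM on a log axis, ordered by their mean over all 8 samples, with circles for LPS and squares for LPS + Tan (mean and SD, n = 4). The order runs from Hspa8 (398 FPKM) to Hspa1a (2.07 FPKM), and the gap between the groups is widest at its low end.

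The 8 mice did not fall into 2 even groups. LPS replicate 1 was the highest LPS mouse for 9 of the 10 genes, all but Bag3, while it was the highest for 24.7% of all tested genes. LPS + Tan replicate 2 was the lowest mouse of its group for 8 of the 10, all but Hspb1 and Bag3, while it was the lowest for 29.3% of all tested genes. Relative to the LPS mean, the median log2 difference of the 10 genes was 0.27, -0.08, -0.11 and -0.13 in LPS replicates 1 to 4 and 0.50, 0.06, 0.37 and 0.42 in LPS + Tan replicates 1 to 4. LPS + Tan replicate 4 exceeded every LPS mouse for 10 of the 10 genes, replicates 1 and 3 for 7 each, and replicate 2 for 2, while each of these mice exceeded every LPS mouse for 21.5 to 28.1% of all tested genes. Without LPS + Tan replicate 2, 6 of the 10 genes had no overlap between the groups (Hspa1a, Hspa1b, Dnajb1, Hsph1, Hsp90aa1 and Hspa8), against 5.25% of all tested genes. Without LPS replicate 1, this held for 4 of the 10 (Hspa1b, Dnajb1, Hsph1 and Hspa8), against 3.15% of all tested genes. At an unadjusted p below 0.05 by edgeR, 7 of the 10 and 5.15% of all tested genes were higher without LPS + Tan replicate 2, and 6 of the 10 and 3.1% without LPS replicate 1. Without LPS + Tan replicate 1, the groups of 2 of the 10 (Dnajb1 and Bag3) did not overlap, against 2.33% of all tested genes.

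Within each group, the cold-induced RNA-binding proteins had an extreme level in the mouse that stood apart for the chaperone genes, and the other mice did not follow an inverse order throughout. Cirbp and Rbm3 are raised by mild cooling and lowered by warmth in many cells, and they were listed as a measure of temperature beside the heat shock genes. Cirbp was measured at 15.5, 23.6, 44.2 and 29.8 CPM in LPS and at 14.3, 39.8, 21.0 and 16.2 CPM in LPS + Tan. Rbm3 was measured at 85.1, 108, 209.9 and 155 CPM in LPS and at 112, 189.8, 92.7 and 86.7 CPM in LPS + Tan. Both were lowest in LPS replicate 1 within the LPS group and highest in LPS + Tan replicate 2 within the LPS + Tan group. Of all tested genes, 25.3% were lowest and 26.9% highest in these mice, respectively. These were the mice in which most of the chaperone genes were highest and lowest. Between the groups their log2 fold changes were -0.31 ± 0.37 and -0.21 ± 0.31 (SE), with adjusted p = 0.972 and 0.978 by edgeR and at least 0.465 and 0.566 in each of 18 alternatives. Single mice decided these values. Without LPS replicate 3 they were -0.01 for Cirbp and 0.06 for Rbm3, and without LPS + Tan replicate 2 they were -0.72 and -0.52. With any 1 mouse left out, they ran between these ends. The part of body temperature in the differences between mice was not tested, since no temperature was given with the samples.

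**Figure D4:**
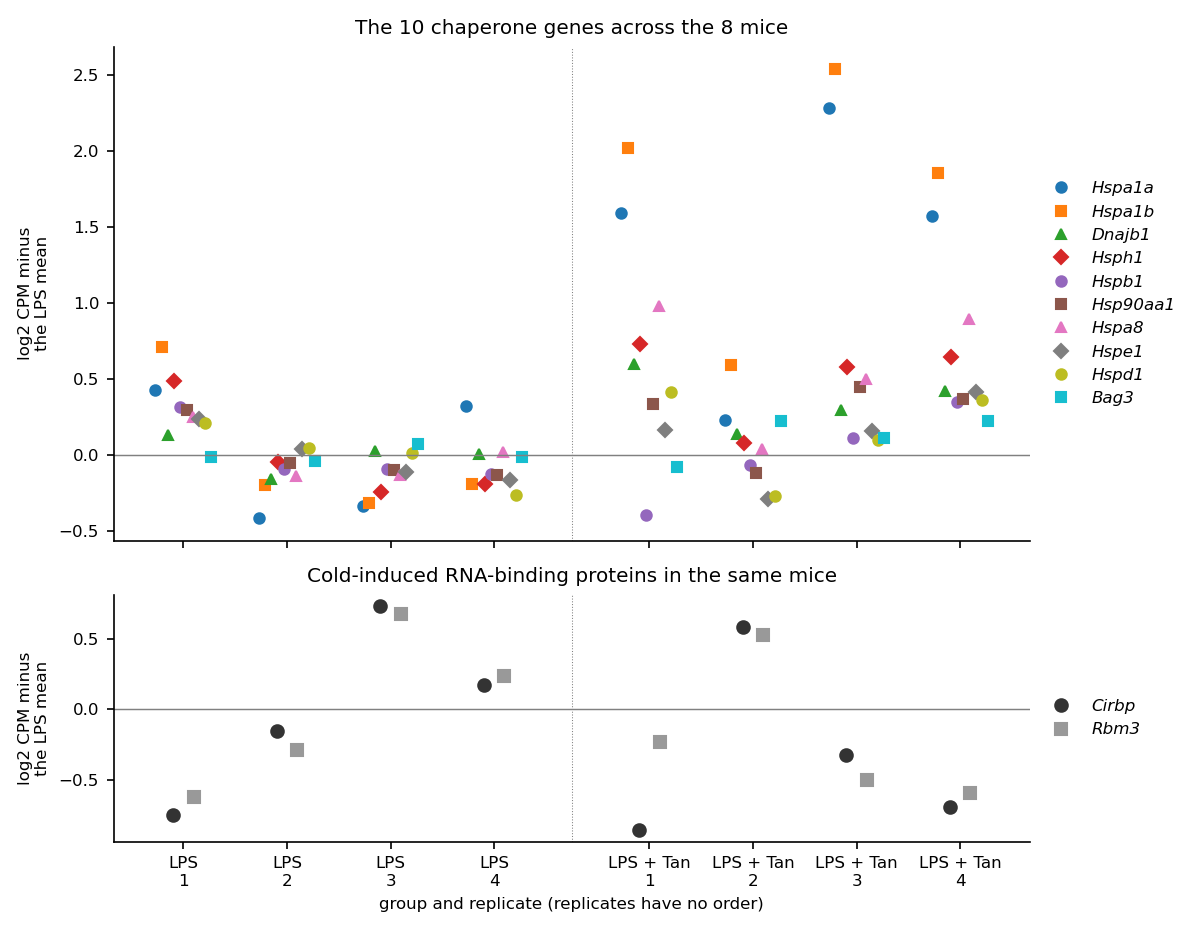
The 10 chaperone genes (upper panel) and the cold-induced genes Cirbp and Rbm3 (lower panel) in each mouse, as log2 CPM minus the mean of the LPS mice on the y axis. In the upper panel LPS replicate 1 stands above the other LPS mice (median 0.27) and LPS + Tan replicate 2 below the other LPS + Tan mice (median 0.06), and in the lower panel these mice are the lowest and the highest of their groups.

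Of HSF1 and the proteins around it, 6 of 7 listed genes were tested (Hsf5 was not), with a median log2 fold change of 0.17, 5 above and 1 below 0. Hsf1 itself was measured at 22.0, 21.9, 16.1 and 21.9 CPM in LPS and at 24.2, 21.4, 25.6 and 23.7 CPM in LPS + Tan. The groups overlapped, with a log2 fold change of 0.21 ± 0.12 (SE) and, by edgeR, an adjusted p of 0.924 (at least 0.525 in each of 18 alternatives). Without LPS replicate 3, the mouse with the lowest value, the log2 fold change was 0.11. Ier5, an immediate early gene whose protein binds HSF1 and promotes its activity, was the 1 of these 6 genes at an unadjusted p below 0.05 (2.87% of all tested genes were higher at that p), measured at 86.1, 81.7, 82.2 and 74.3 CPM in LPS and at 108, 108, 97.8 and 94.0 CPM in LPS + Tan. Every LPS + Tan mouse was above every LPS mouse, LPS + Tan replicate 2 included, as for 1.58% of all tested genes. Its log2 fold change was 0.33 ± 0.08 (SE), with adjusted p = 0.850 by edgeR and at least 0.130 in each of 18 alternatives.

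Other chaperones, HSF factors and HSF1 targets made up 10 lists with 100 genes in all, of which 97 were tested. Their median log2 fold change was 0.03, with 57 above and 40 below 0, against 0.01 over all tested genes. By edgeR 0 of the 97 passed at an adjusted p below 0.05, and 4 were higher (Ier5, Dnaja1, Bag5 and Ahsa2) and 1 lower (Clpb) at an unadjusted p below 0.05, against 2.87% and 2.25% of all tested genes. The 14 other J-domain proteins had a median of 0.00, with 8 above and 6 below 0. Dnaja1, a second HSP40 of the cytosol, had the highest log2 fold change of them. It was measured at 161, 122, 121 and 131 CPM in LPS and 222, 125, 168 and 235 CPM in LPS + Tan. LPS + Tan replicate 2 again lay within the LPS range, and the log2 fold change was 0.49 ± 0.19 (SE), with adjusted p = 0.924 by edgeR and at least 0.239 in each of 18 alternatives.

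The HSP90 machine, 15 genes of HSP90 and its co-chaperones, had a median log2 fold change of 0.15, with 12 above and 3 below 0. Hsp90ab1, the constitutive HSP90, was measured at 1308, 1060, 995 and 915 CPM in LPS and at 1435, 1002, 1236 and 1379 CPM in LPS + Tan, a log2 fold change of 0.24 ± 0.15 (SE) with overlapping groups. Ahsa2, a relative of the activator of the HSP90 ATPase, was measured at 22.5, 17.4, 12.4 and 14.7 CPM in LPS and at 27.2, 16.0, 23.3 and 29.0 CPM in LPS + Tan. Its groups overlapped through LPS + Tan replicate 2, and its log2 fold change was 0.51 ± 0.22 (SE), with adjusted p = 0.924 by edgeR and at least 0.284 in each of 18 alternatives.

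Other HSP70 and HSP110 genes, 8 in all, had a median log2 fold change of 0.02, with 4 above and 4 below 0. At an unadjusted p below 0.05 there were 0 of them, against 2.87% of all tested genes higher and 2.25% lower. Hspa1l, which lies 546 bases from Hspa1a, was measured at 0.358, 0.329, 0.183 and 0.181 CPM in LPS and at 0.271, 0.229, 0.340 and 0.546 CPM in LPS + Tan, a log2 fold change of 0.39 ± 0.42 (SE) on overlapping groups of few reads, which was 0.09 without LPS + Tan replicate 4. Hspa4l, a relative of HSP110, was at 0.06 ± 0.09 (SE). Among 8 BAG proteins and other HSP70-binding factors the median was 0.00. Bag5, a BAG protein that acts on HSP70 and on the ubiquitin ligase parkin, was measured at 36.8, 32.9, 34.7 and 38.3 CPM in LPS and at 41.6, 42.4, 38.5 and 41.7 CPM in LPS + Tan, with no overlap (1.58% of all tested genes) and a log2 fold change of 0.20 ± 0.08 (SE).

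Small heat shock proteins other than Hspb1 had a median of 0.05 over 5 tested genes (Hspb3 and Hspb9 were not tested), with Cryab, the lens and muscle chaperone alpha B-crystallin, at 0.26 ± 0.17 (SE) and Hspb6 at -0.11 ± 0.19 (SE). The 8 subunits of TRiC, the chaperonin of the cytosol that folds actin and tubulin, had a median of 0.06, with 7 above and 1 below 0, and Cct3 and Cct8 stood at 0.09 ± 0.09 and 0.10 ± 0.11 (SE). The 15 chaperones of the endoplasmic reticulum, many of them driven by the unfolded protein response, had a median of 0.03, with 10 above and 5 below 0. Of these, Hspa5 (BiP) stood at 0.12 ± 0.15 (SE) and between 0.03 without LPS + Tan replicate 1 and 0.24 without LPS + Tan replicate 2, Dnajb9 at 0.15 ± 0.09 (SE) and Sdf2l1 at 0.35 ± 0.27 (SE). The list also holds Serpinh1, the collagen chaperone HSP47 and a known HSF1 target, at -0.13 ± 0.18 (SE). None of these 3 lists held a gene at an unadjusted p below 0.05, where 2.87% of all tested genes were higher and 2.25% lower.

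Mitochondrial chaperones and proteases other than Hspd1 and Hspe1 gave the 1 chaperone list without a log2 fold change above 0, with 12 of 12 below and a median of -0.04. Apart from Clpb and Yme1l1, each of these log2 fold changes was smaller than its SE. Signs this near 0 can depend on the scaling. Without the TMM factor, the log2 fold change of Hspb1 rose from 0.01 to 0.05. Clpb, a disaggregase of the mitochondrial intermembrane space, was the 1 of the 12 at an unadjusted p below 0.05 (2.25% of all tested genes were lower at that p), measured at 19.4, 21.8, 20.9 and 19.0 CPM in LPS and at 17.7, 18.5, 16.5 and 17.8 CPM in LPS + Tan. Every LPS + Tan mouse was below every LPS mouse, as for 1.15% of all tested genes, at a log2 fold change of -0.20 ± 0.09 (SE), with adjusted p = 0.924 by edgeR and at least 0.462 in each of 18 alternatives. The 18 HSF1 targets listed outside the 10 genes, several of which also stand in the lists of families, had a median of 0.12, with 14 above and 4 below 0, and Dnaja1 was the 1 at an unadjusted p below 0.05, against 2.87% of all tested genes.

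**Figure D5:**
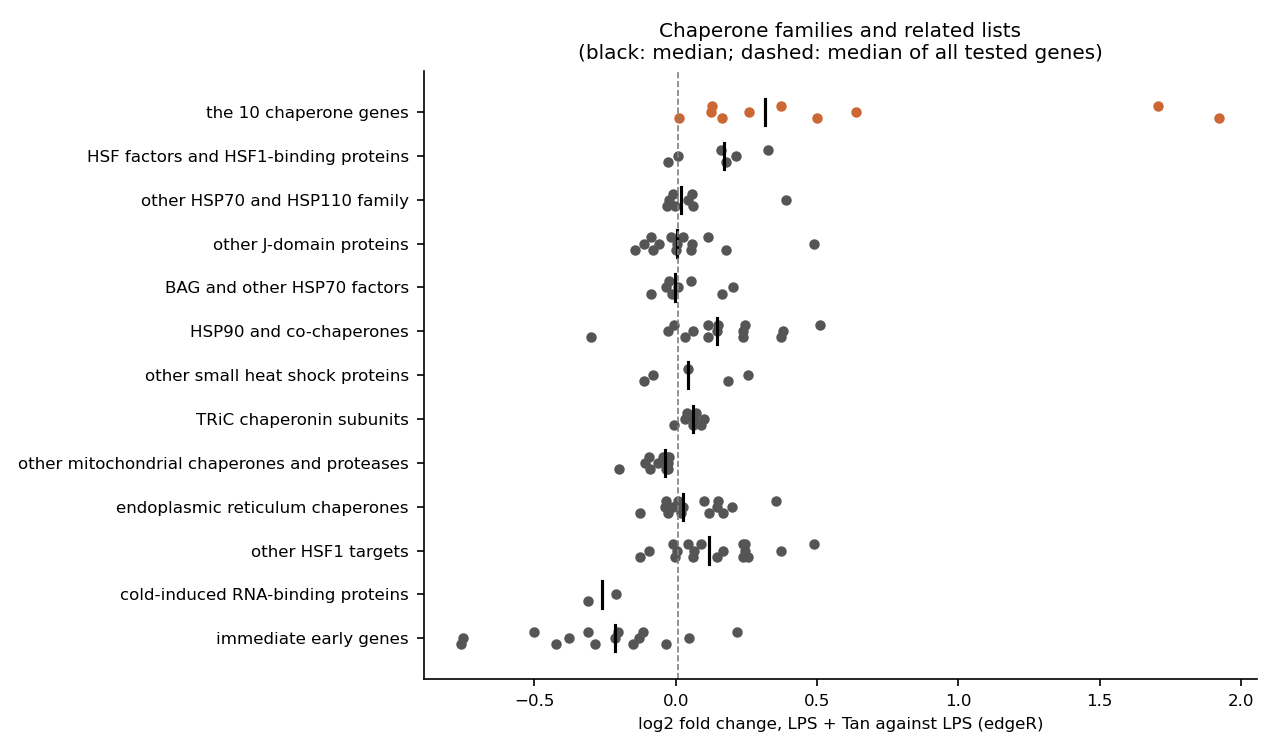
Log2 fold change of LPS + Tan against LPS (x axis, edgeR) for each tested gene of the 10 chaperone genes, of the other chaperone families and of related lists (y axis), with a black bar at each list's median and a dashed line at the median of all tested genes (0.01). The 10 genes have a median of 0.32, the other lists of chaperones lie between -0.04 and 0.15, HSF factors lie at 0.17, and the points at the far right are Hspa1a and Hspa1b.

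The genes whose pattern was most like that of the summed Hspa1a and Hspa1b counts were sought among 13726 genes with a mean of at least 1 CPM, by Pearson's r of log2 CPM over the 8 samples, which share libraries and the difference between the groups on which the chaperone genes were chosen. The 10 highest were 2500004C02Rik (r = 0.966), Wdr82 (r = 0.962), 2310022B05Rik (r = 0.946), Rarg (r = 0.939), Gli1 (r = 0.938), Hykk (r = 0.937), Slc48a1 (r = 0.936), Stmn2 (r = 0.936), Kcns3 (r = 0.936) and Zfp934 (r = 0.935). Of the chaperone genes, Hsph1 (r = 0.903), Hsp90aa1 (r = 0.896), Hspa8 (r = 0.875) and Dnajb1 (r = 0.861) came near them, Hspe1 (r = 0.629) and Hspd1 (r = 0.597) less so, and Bag3 (r = 0.244) and Hspb1 (r = 0.198) least. Of the compared genes, 99.1% had a lower r than Dnajb1, 90.3% a lower r than Hspe1 and 62.9% a lower r than Hspb1.

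No marker of the cell types of the lung was at 0 reads in all samples, and their summed levels overlapped between the groups for all 10 lists. Over 7 endothelial markers the sum was 3333 to 4093 CPM in LPS and 3831 to 4340 CPM in LPS + Tan. Their median log2 fold change was 0.19, with 4 above 0 and 3 below (Cdh5, Cldn5 and Vwf), and 2 of the 7, the receptors Kdr and Tek, named after their values were seen, were higher at an unadjusted p below 0.05 with log2 fold changes of 0.37 ± 0.15 and 0.51 ± 0.22 (SE), against 2.87% of all tested genes. Without LPS + Tan replicate 1 that of Kdr was 0.24. The other 9 lists (alveolar type 2, alveolar type 1, airway, neutrophil, macrophage and monocyte, lymphocyte, erythroid, cardiac muscle, and fibroblast and smooth muscle) held 0 genes at an unadjusted p below 0.05 by edgeR in either direction (2.87% of all tested genes were higher and 2.25% lower) and 0 at an adjusted p below 0.05. Erythroid markers had a median log2 fold change of -0.55, with 5 of 5 below 0 (1415 to 3427 CPM in LPS, 1315 to 2133 CPM in LPS + Tan), and cardiac muscle markers one of 0.30, with 6 of 6 above 0 (141 to 193 CPM against 139 to 269 CPM). The part of these cell types in the levels of the chaperone genes was not tested.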

How the data were processed

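The authors deposited raw read counts per gene for 24584 genes in 8 samples, and FPKM values that equal those counts divided by gene length and total count (13768 genes were checked, and 100% agreed within 0.1%). The submitters' processing notes name the builds GRCm38 and mm10. For the aligner, annotation and counter, nothing was given in the sources used here. Groups came from the labels, and 0 value columns had no sample. Kits are named differently in the labels and the methods.

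Counts were fitted over all genes with edgeR 4.0.16 in R 4.3.3 (filterByExpr, TMM, quasi-likelihood test, no covariate, Benjamini-Hochberg adjustment). The SE is the log2 fold change over the square root of F. Alternatives used DESeq2 1.42.0 and limma 3.58.1. The script was tested on simulated counts with 200 genes changed 2-fold or 3-fold. At an adjusted p below 0.05, 12.6% and 16.5% of DESeq2's calls were false. For edgeR's quasi-likelihood test these shares were 5% and 3.66%. Depth was even, so that the spread between mice limited precision. Whether samples of a group were separate litters is not stated, and p-values set the difference between the groups against the spread between these samples. The variance between libraries of a group was 7.83 to 22.4 times that of sampling noise. Replicate numbers did not pair the samples, since deviations of same-numbered samples correlated at -0.165 to 0.164 (other pairs -0.263 to 0.292).

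The 10 genes and all lists were chosen with earlier results of these data known. Genes named besides are those of a list at an unadjusted p below 0.05, else the 2 to 4 with the lowest p, 8 genes whatever their values (Hsf1, Hspa1l, Cirbp, Rbm3, Hsp90ab1, Hspa5, Fos and Egr1), and the 10 most alike. Fkbp5, Kdr, Tek, Cdh5, Cldn5, Vwf, Serpinh1 and Nr4a3 were named after their values were seen. Positions and shared 100-base stretches came from the GENCODE annotation of GRCm38, and promoter windows from RefSeq (GRCm38.p6).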

Additional observations from a re-analysis of the deposited data

Results flagged for a closer look

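In 72 groups of 4 values, 5 had 1 mouse standing far off by Dixon's ratio, where chance gives about 1 in 20, or 3.6. The ratio sets the distance from the highest or lowest mouse to the next one against the whole range of the group, on log2 CPM. It was 0.874 for Hspa1b in LPS replicate 1 (9.92 CPM, the others 4.60 to 5.08) and 0.934 for Hspb1 in the same mouse (135 CPM, the others 99.3 to 101). It was 0.973 for Hsf1 in LPS replicate 3, the lowest of its group (16.1 CPM, the others 21.9 to 22.0). In LPS + Tan replicate 2 it was 0.872 for Egr1, the highest (92.1 CPM, the others 34.4 to 39.0), and 0.8291 for Rarg, the lowest (54.6 CPM, the others 68.1 to 71.3).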

How the results depend on the processing

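Of the 10 chaperone genes, 0 passed at an adjusted p below 0.05 by edgeR's quasi-likelihood test, while DESeq2 passed 2 and edgeR's likelihood ratio test 2, Hspa1a and Hspa1b in both. With 1 mouse left out in turn, 4 to 7 of the 10 were higher and 0 lower at an unadjusted p below 0.05, 0 passed after adjustment, 1 to 6 had groups that did not overlap (2.28 to 5.25% of all tested genes), and 268 to 820 of all genes were higher at an unadjusted p below 0.05 (451 with all mice). The lower ends of that last range came without LPS + Tan replicate 1 (268) or 3 (292) and the upper ends without replicate 2 (820) or 4 (761). The count without overlap was 4 without LPS replicate 1 (3.15% of all tested genes), 2 without LPS + Tan replicate 1 (2.33%) and 6 without LPS + Tan replicate 2 (5.25%). With the replicate number as a block, 5 of the 10 were higher and 0 passed after adjustment, with 397 of all genes higher, so the block moved no count by over 1.5 times. Over 18 alternatives the log2 fold change of Hspb1 changed sign in 6 and that of the other 9 chaperone genes in 0. On log2(FPKM + 1), a scale that understates low genes, that of Hspa1a was 1.02 rather than 1.71. It ran from 1.35 without LPS + Tan replicate 3 to 1.99 without LPS + Tan replicate 2. No treatment-free lung was analysed here, and reads shared by Hspa1a and Hspa1b limit what each gene's own level means.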

Other observations

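Immediate early genes, which are transcribed within minutes of a stimulus, had mostly negative log2 fold changes in the list used here. Of 15 listed, 13 had a log2 fold change below 0 and 2 above, with a median of -0.21 against 0.01 over all tested genes, and an unadjusted p below 0.05 by edgeR was met by 3 in the lower and 0 in the higher direction (0 after adjustment), against 2.25% and 2.87% of all tested genes. The list does not hold every immediate early gene. Ier5, listed with the HSF factors, had a log2 fold change of 0.33 ± 0.08 (SE), and Nr4a3, named after its values were seen, was higher at an unadjusted p below 0.05 by edgeR. Fos, a subunit of AP-1, was measured at 49.9, 71.8, 62.9 and 75.6 CPM in LPS and at 29.4, 51.2, 31.2 and 42.8 CPM in LPS + Tan, a log2 fold change of -0.75 ± 0.19 (SE). Its groups overlapped only through LPS replicate 1 and LPS + Tan replicate 2, and its adjusted p was 0.850 by edgeR and at least 0.0750 in each of 18 alternatives. Zfp36, which promotes decay of cytokine mRNAs, had every LPS + Tan mouse below every LPS mouse (115 to 145 against 148 to 169 CPM), as had 1.15% of all tested genes, with a log2 fold change of -0.31 ± 0.09 (SE). Egr1, a zinc finger factor, was measured at 55.2, 88.6, 95.4 and 100.3 CPM in LPS and at 35.3, 92.1, 39.0 and 34.4 CPM in LPS + Tan, a log2 fold change of -0.76 ± 0.32 (SE), which was -1.23 without LPS + Tan replicate 2. LPS replicate 1 was the lowest LPS mouse for both Fos and Egr1, as for 25.3% of all tested genes. LPS + Tan replicate 2 was the highest of its group for both, as for 26.9% of all tested genes.

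Fkbp5, an HSP90 co-chaperone known as a target of the glucocorticoid receptor, was named after its values were seen. It was measured at 497, 461, 466 and 479.6 CPM in LPS and at 332, 516, 377 and 323 CPM in LPS + Tan, so that 3 of the 4 LPS + Tan mice lay below all LPS mice while LPS + Tan replicate 2 lay above them. Its log2 fold change was -0.30 ± 0.14 (SE), with adjusted p = 0.924 by edgeR.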
